A study of Caenorhabditis elegans with 12 samples.

Results

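The transthyretin-related (ttr) genes form one of the large gene families of C. elegans. They were taken as all genes with the WormBase name ttr and a number that have a count entry in the files. There were 58 of them among 46778 genes, and all 58 were annotated as protein coding. After a filter on low counts, 50 ttr genes and 14696 genes in all were tested.

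Most ttr genes encode small proteins with a secretion signal that are distantly related to vertebrate transthyretin, a carrier of thyroid hormone and of retinol-binding protein in blood. The family is expanded in nematodes, and the function of most members is unknown. TTR-52 is a secreted bridging protein that links phosphatidylserine on dying cells to the engulfment receptor CED-1. TTR-33 protects dopaminergic neurons from oxidative damage, and TTR-11 binds phosphatidylserine on injured axons during axon regrowth.

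RNA was measured in whole adult worms of the N2 strain, with 3 libraries for each of 4 conditions. WT worms were fed bacteria carrying control RNAi, and *lpin-1(RNAi)* animals were fed bacteria expressing double-stranded RNA against *lpin-1*, the worm gene for the phosphatidic acid phosphatase lipin. RNAi ran from the egg on bacteria treated with 10 mM IPTG. At day 1 of adulthood all animals went to plates with 10 µM FUdR, which blocks the hatching of progeny, either without extra glucose (control diets) or with 2% added glucose (glucose-rich diets). All animals were kept at 20 °C. All 4 conditions therefore share N2, temperature, FUdR, IPTG and feeding RNAi, and the knockdown was partial. The *lpin-1* level was 158 ± 12.3 CPM (read counts scaled to library size, SD, n = 3) in WT and 89.3 ± 5.01 in *lpin-1(RNAi)* worms on control diets, or 56.5% of WT. On glucose-rich diets it was 165 ± 15.8 and 112 ± 9.30 CPM, or 67.8% of WT. With glucose *lpin-1* rose by 0.32 (log2, SE 0.10, edgeR quasi-likelihood test, Benjamini-Hochberg adjusted p = 0.0455) in *lpin-1(RNAi)* animals. In WT it differed by 0.06 (adjusted p = 0.811), and the difference between these glucose effects did not pass (0.26, adjusted p = 0.594). The labels do not say whether the 3 libraries of a condition came from separate cultures, so the p-values measure the spread between these libraries, which may be technical.

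The levels of the ttr genes per kilobase of annotated exon spanned from 0.445 to 1344 CPM per kb among the 50 tested members, with a median of 27.4 CPM per kb. Above 100 CPM per kb lay 15 members. The highest were *ttr-15* with 1344, *ttr-16* with 880, *ttr-2* with 674, *ttr-51* with 607 and *ttr-17* with 163 CPM per kb, as means over the 12 libraries. These 5 genes held 59.7% of all ttr CPM, and *ttr-15* alone held 24.8%. Coordinates are those of WBcel235. *ttr-15* lies on chromosome III at 10337847 to 10339440, and *ttr-2* on the same chromosome at 9927769 to 9929004. *ttr-16* and *ttr-17* are neighbours on chromosome IV, at 11063530 to 11064137 and at 11066019 to 11067026. *ttr-51* lies on chromosome IV at 13250655 to 13252311.

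**Figure D1:**
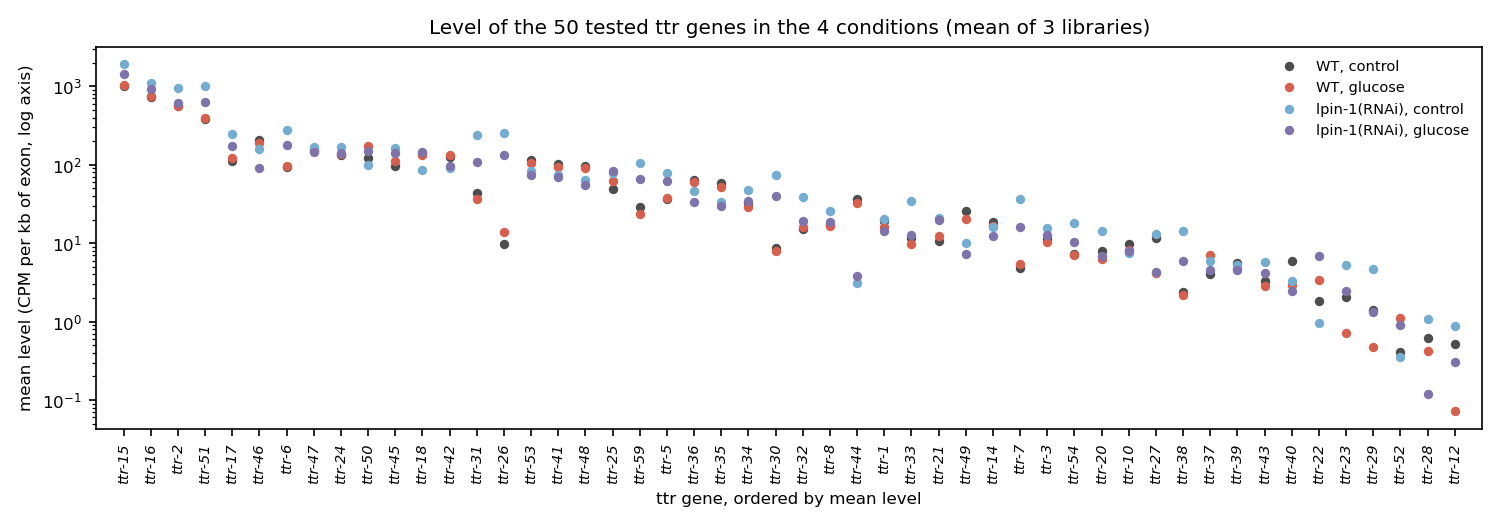
Mean level of each of the 50 tested ttr genes in CPM per kilobase of exon (vertical log axis), ordered by the mean over the 12 libraries, with a point for each of the 4 conditions (mean of 3 libraries). *ttr-15* stands at 1344 CPM per kb and the lowest tested member at 0.445 CPM per kb, and the conditions lie far apart at *ttr-26*, *ttr-30* and *ttr-44*.

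8 low members were left out of the test by the filter on low counts. *ttr-19* had 0 counts in all 12 libraries, where 3 counts, the limit that a count of 0 allows, correspond to 0.0905 to 0.192 CPM. *ttr-11*, the phosphatidylserine-binding member, had 2 reads in all, both in WT on glucose-rich diets. *ttr-57* had 1 read in all. *ttr-9*, *ttr-13*, *ttr-55*, *ttr-56* and *ttr-58* reached at most 9, 6, 3, 7 and 3 counts in any library. The depth was 16546027 to 31534284 counts per library. *ttr-9* had 6, 9 and 3 counts in the control-diet *lpin-1(RNAi)* libraries and 0, 1 and 0 counts with added glucose. Its 18 and 1 summed counts gave a ratio of 16.6 after scaling, with a 95% exact (Clopper-Pearson) counting interval of 2.63 to 693.2. Fitted without the filter, *ttr-9* passed the test for that contrast (edgeR adjusted p = 0.0154), and the other 6 low members with any reads passed no test. *ttr-52*, the engulfment ligand, passed the filter with 3 to 21 counts per library. Its level was 0.193, 0.109 and 0.418 CPM in WT and 0.639, 0.280 and 1.02 CPM in WT on glucose-rich diets. After *lpin-1* RNAi it was 0.217, 0.0905 and 0.319 CPM on control diets and 0.544, 0.510 and 0.571 CPM on glucose-rich diets. The WT libraries of both diets overlapped, the *lpin-1(RNAi)* libraries of both diets did not, and *ttr-52* passed no test. Its log2 fold change with glucose was 1.45 in *lpin-1(RNAi)* animals (SE 0.57, edgeR quasi-likelihood test with Benjamini-Hochberg adjustment, adjusted p = 0.121).

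The first comparison asked which ttr genes differed between *lpin-1(RNAi)* animals and WT worms on control diets. More members rose than fell after *lpin-1* RNAi. Of the 50 tested members, 26 rose (52%) and 8 fell (16%) in edgeR's quasi-likelihood test at a Benjamini-Hochberg adjusted p under 0.05, against 19.5% and 19.8% of all tested genes. With the study's stricter rule of a fold change above 2 in addition, 15 rose and 2 fell, against 10.0% and 5.61% of all tested genes. The median log2 fold change was 0.58 over the 50 members. The median over all tested genes was -0.00. The 16 members that did not pass lay between -0.90 and 0.76. In a fit blocked on replicate number, 28 rose and 12 fell, beside 3379 and 3381 of all 14696 tested genes.

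**Figure D2:**
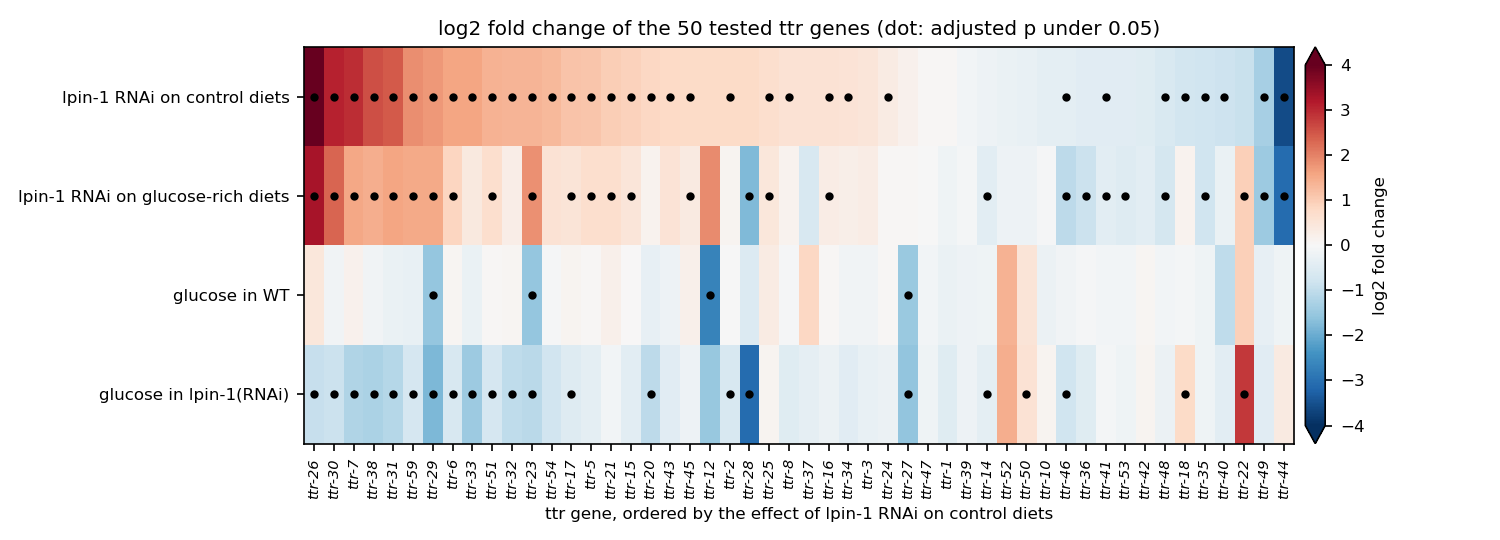
Log2 fold change (colour, red higher and blue lower) of the 50 tested ttr genes (columns, ordered by the effect of *lpin-1* RNAi on control diets) in 4 comparisons (rows), with a dot where the adjusted p was under 0.05. In the top row, 26 members with a dot are red and 8 are blue, and in the bottom row 3 are red and 19 are blue.

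The summed level of all 58 ttr genes was 2714, 2273 and 3160 CPM in the WT libraries and 4967, 3823 and 4530 CPM in the control-diet *lpin-1(RNAi)* libraries. Every *lpin-1(RNAi)* library on control diets lay above every WT library. The means were 2715 ± 444 and 4440 ± 578 CPM (SD, n = 3), a ratio of 1.64. Without the 5 members of highest level per kilobase the means were 1206 and 1643 CPM, a ratio of 1.36. There the groups did not overlap by a narrow margin, with 1413 CPM in the highest WT library and 1417 CPM in the lowest *lpin-1(RNAi)* library. These sums are descriptions with no test.

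*ttr-26* had the largest increase. It lies on chromosome V at 18558758 to 18560288, minus strand. Its level was 5.88, 4.29 and 6.23 CPM in WT and 145, 122.1 and 157 CPM in *lpin-1(RNAi)* worms on control diets. The lowest *lpin-1(RNAi)* library lay far above the highest WT library, and the mean level per length was 9.84 and 254 CPM per kb. The log2 fold change was 4.70 (SE 0.19, adjusted p = 1.2e-09), or 25.9-fold. Its neighbours *ttr-25* and *ttr-24*, 658 bases from *ttr-26* and 70 bases from *ttr-25*, rose by 0.66 (SE 0.13, adjusted p = 0.00148) and 0.33 (SE 0.12, adjusted p = 0.0423) on the same scale.

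*ttr-30* on the X chromosome (7330949 to 7331903) was at 6.03, 4.29 and 7.28 CPM in WT and at 56.4, 41.4 and 49.3 CPM in *lpin-1(RNAi)* worms on control diets, an 8.38-fold increase (log2 fold change 3.07, SE 0.20, adjusted p = 7.1e-08). *ttr-59* lies 279 bases before it on the same strand and rose 3.64-fold, from 23.4, 19.01 and 24.0 CPM to 88.5, 68.0 and 85.4 CPM. Neither gene overlapped between the conditions. *ttr-7* (chromosome III, 606004 to 606998) rose from 2.51, 2.14 and 3.47 CPM to 24.5, 15.9 and 22.6 CPM (log2 fold change 2.95, SE 0.24, adjusted p = 4.8e-07). *ttr-38* (X, 9312515 to 9314497) rose from 1.06, 1.64 and 1.72 CPM to 10.6, 7.72 and 8.18 CPM (log2 fold change 2.57, SE 0.21, adjusted p = 4.8e-07). *ttr-31* (X, 11008268 to 11009054) rose from 26.2, 20.3 and 27.4 CPM to 152, 103 and 145 CPM (log2 fold change 2.44, SE 0.17, adjusted p = 9.5e-08). In each of these genes the library labelled replicate 2 was the lowest of the 3 control-diet *lpin-1(RNAi)* libraries, as it was in the summed level.

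The 5 members of highest level per kilobase also rose, by less. *ttr-15* was at 628, 473 and 739 CPM in WT and at 1279, 997 and 1206 CPM after *lpin-1* RNAi on control diets (log2 fold change 0.92, SE 0.17, adjusted p = 5.8e-04). *ttr-51* had the largest change of the 5, from 182, 147 and 227 CPM to 578, 391 and 494 CPM (1.40, SE 0.17, adjusted p = 1.9e-05). *ttr-17* rose from 49.0, 47.2 and 57.5 CPM to 131, 96.6 and 113 CPM (1.15, SE 0.13, adjusted p = 7.8e-06). The groups did not overlap in any of these 3 genes. *ttr-2* rose by 0.76 (SE 0.16, adjusted p = 0.00177) and *ttr-16* by 0.57 (SE 0.10, adjusted p = 5.7e-04) on the log2 scale. The 13 increases of *ttr-5*, *ttr-6*, *ttr-8*, *ttr-20*, *ttr-21*, *ttr-24*, *ttr-25*, *ttr-32*, *ttr-34*, *ttr-43*, *ttr-45*, *ttr-54* and *ttr-59* lay between 0.33 and 1.86.

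**Figure D3:**
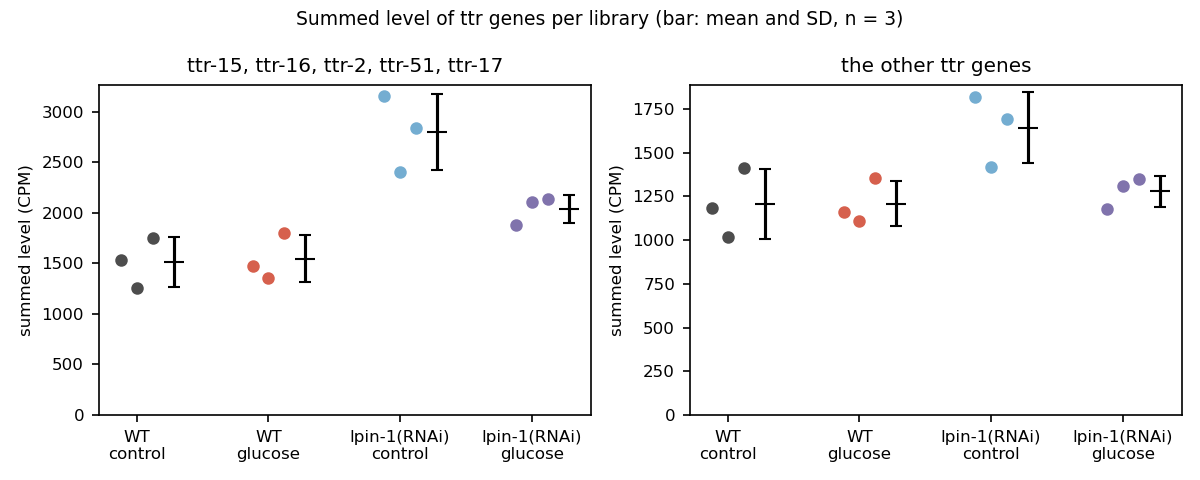
Summed level in CPM (vertical axes from 0) of the 5 ttr genes of highest level per kilobase (left) and of the other 53 ttr genes (right) in each library (points) of the 4 conditions, with the mean and SD of 3 libraries (bars). In both panels every *lpin-1(RNAi)* library on control diets lies above every WT library, narrowly so on the right. The mean of the glucose-fed *lpin-1(RNAi)* libraries lies between these groups on the left and within the range of the WT libraries on the right.

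The 8 members that fell were *ttr-18*, *ttr-35*, *ttr-40*, *ttr-41*, *ttr-44*, *ttr-46*, *ttr-48* and *ttr-49*. *ttr-44* (chromosome V, 13529545 to 13530744) stood far apart from the others. Its level was 21.0, 22.5 and 29.5 CPM in WT and 1.61, 2.26 and 2.28 CPM in *lpin-1(RNAi)* worms on control diets, an 11.9-fold decrease (log2 fold change -3.58, SE 0.21, adjusted p = 2.6e-08). *ttr-44* overlaps R11G10.3 on the other strand over 191 bases, and R11G10.3 had 10 to 46 counts per library and a log2 fold change of 1.27. *ttr-49* (chromosome V, 9355505 to 9356515) fell from 13.7, 14.7 and 22.4 CPM to 7.20, 6.27 and 6.75 CPM (log2 fold change -1.33, SE 0.18, adjusted p = 6.2e-05). Its neighbour *ttr-40*, 33 bases away on the same strand, fell from 2.36, 1.93 and 4.14 CPM to 1.92, 1.12 and 1.70 CPM (-0.83, SE 0.31, adjusted p = 0.0453), and the groups of *ttr-40* did not overlap by a narrow margin. The call of *ttr-40* was lost without WT replicate 1 or 3, without *lpin-1(RNAi)* replicate 2 or 3, and without any single library of the glucose-rich diets except *lpin-1(RNAi)* replicate 2 (adjusted p up to 0.257). *ttr-35* (X, 6512285 to 6512918) fell from 29.3, 26.03 and 40.0 CPM to 20.7, 16.05 and 18.3 CPM (-0.79, SE 0.16, adjusted p = 0.00126). *ttr-46* fell by 0.39 on the log2 scale (SE 0.13, adjusted p = 0.0293), a call lost without WT replicate 3 or *lpin-1(RNAi)* replicate 2 or 3 (adjusted p up to 0.126). *ttr-41* and *ttr-48* fell by 0.46 to 0.62.

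With scaling by library totals alone, which moved the median of all genes by 0.25 (log2) in this comparison, 28 members rose and 4 fell. Of all 14696 tested genes, 4622 rose and 1469 fell with that scaling, compared with 2869 and 2903 in the main fit. Without WT replicate 2, 13 members fell, beside 3055 of 14873 genes.

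Markers of several tissues also differed after *lpin-1* RNAi, so that fewer cells of a type and less RNA per cell cannot be told apart in these whole-worm samples. Of 8 neuron markers, 5 rose on control diets (62.5%, against 19.5% of all tested genes). Their summed level was 241 to 265 CPM in WT and 459 to 470 CPM after *lpin-1* RNAi. Of 7 intestine markers, 2 rose (28.6%) and 5 fell (71.4%, against 19.8% of all tested genes). Their sums were 2343 to 2551 CPM and 925 to 1172 CPM. Of 8 hypodermis markers, 2 fell (*col-19* and *grd-10*, 25%), near the share of all tested genes, and 6 did not pass. The median log2 fold change of the 8 was -0.55. Their sums, which weigh abundant genes most, were 2297 to 2814 CPM and 448 to 580 CPM. Of 9 oocyte and germline markers, 3 fell (33.3%). Lone calls were *ptr-10* (glia), which rose, and *cup-4* (coelomocyte), *bas-1* (dopaminergic neuron) and *mlt-7* (larval molting), which fell. No sperm, body wall muscle or pharynx marker passed. The 6 body wall muscle markers summed to 1927 to 2821 CPM and 1805 to 2614 CPM. No marker of any of these lists was at 0 in a condition, and their part in the ttr results was not tested.

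The same comparison on glucose-rich diets asked whether the ttr genes differed between *lpin-1(RNAi)* and WT worms when both ate added glucose. At an adjusted p under 0.05, a larger share of members than of all tested genes rose. The share that fell was near that of all tested genes. Of the 50 members, 18 rose (36%) and 10 fell (20%), against 16% and 15.8% of all tested genes. With the fold rule, 8 rose and 4 fell, against 8.04% and 4.21%. The median log2 fold change was 0.19, beside 0.03 over all tested genes. The summed level was 2636, 2463 and 3154 CPM in WT and 3057, 3418 and 3479 CPM in glucose-fed *lpin-1(RNAi)* worms, and the groups overlapped. This overlap depends on the scaling, since library totals alone give lower WT sums and higher *lpin-1(RNAi)* sums. With scaling by library totals alone, 23 rose and 6 fell, beside 3829 and 1117 of all 14696 tested genes. Without *lpin-1(RNAi)* replicate 3 on glucose-rich diets 11 rose, beside 1684 of 14983 genes. In a fit blocked on replicate number, 20 rose and 12 fell, beside 2986 and 2806 of all 14696 tested genes.

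*ttr-26* was at 9.07, 5.74 and 8.09 CPM in WT and at 63.7, 82.7 and 77.0 CPM in glucose-fed *lpin-1(RNAi)* worms, a 9.89-fold increase (log2 fold change 3.31, SE 0.18, adjusted p = 2.8e-08). *ttr-30* was at 4.92, 4.41 and 6.68 CPM and at 23.2, 29.3 and 28.4 CPM, a 5.07-fold increase (2.34, SE 0.21, adjusted p = 1.6e-06). *ttr-23* (chromosome V, 10589092 to 10589860), a low member, was at 0.447, 0.280 and 0.439 CPM and at 1.30, 1.46 and 1.26 CPM (1.82, SE 0.35, adjusted p = 0.00142). The groups lay apart in all 3 genes. *ttr-31* rose 2.99-fold, from 17.8, 18.97 and 24.4 CPM to 56.1, 62.0 and 64.4 CPM (1.58, SE 0.17, adjusted p = 8.3e-06). The increases of *ttr-5*, *ttr-6*, *ttr-21*, *ttr-25*, *ttr-45* and *ttr-59* lay between 0.35 and 1.505.

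Among the decreases *ttr-44* again had the largest change, from 17.0, 21.6 and 26.6 CPM to 2.26, 2.89 and 2.61 CPM (log2 fold change -3.07, SE 0.21, adjusted p = 1.5e-07). *ttr-49* fell 2.75-fold, from 11.8, 12.9 and 15.6 CPM to 4.90, 4.49 and 5.26 CPM (-1.46, SE 0.19, adjusted p = 5e-05). The groups did not overlap in either gene. *ttr-46* (chromosome V, 9951233 to 9952178) fell from 121, 118 and 136 CPM to 53.1, 65.3 and 64.4 CPM (-1.04, SE 0.13, adjusted p = 4e-05). *ttr-36* (X, 6510927 to 6512195) fell from 28.6, 26.3 and 30.9 CPM to 13.9, 15.8 and 17.2 CPM (-0.87, SE 0.18, adjusted p = 0.00258). On control diets the values of *ttr-36* were 28.7, 22.03 and 38.6 CPM in WT and 23.8, 17.9 and 24.0 CPM after *lpin-1* RNAi, which overlapped (-0.44, adjusted p = 0.0684). Its neighbour *ttr-35*, 89 bases away, fell on both diets. The decreases of *ttr-14*, *ttr-41*, *ttr-48* and *ttr-53* lay between -0.72 and -0.42.

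The *lpin-1* RNAi effects under the 2 diets were measured in separate libraries. Of the 26 members that rose on control diets, 17 also rose on glucose-rich diets (65.4% of the 26 and 94.4% of the 18). They were *ttr-5*, *ttr-6*, *ttr-7*, *ttr-15*, *ttr-16*, *ttr-17*, *ttr-21*, *ttr-23*, *ttr-25*, *ttr-26*, *ttr-29*, *ttr-30*, *ttr-31*, *ttr-38*, *ttr-45*, *ttr-51* and *ttr-59*. *ttr-22* passed with glucose but not on control diets. *ttr-2*, *ttr-8*, *ttr-20*, *ttr-24*, *ttr-32*, *ttr-33*, *ttr-34*, *ttr-43* and *ttr-54* passed on control diets but missed the threshold with glucose. Of these, the difference between the diets passed the interaction test for *ttr-33*. Of the decreases, *ttr-35*, *ttr-41*, *ttr-44*, *ttr-46*, *ttr-48* and *ttr-49* passed on both diets (75% of the 8 and 60% of the 10). *ttr-18* and *ttr-40* passed as lower on control diets alone, and *ttr-14*, *ttr-28*, *ttr-36* and *ttr-53* with glucose alone. The increases of *ttr-15* and *ttr-16* on glucose-rich diets were small, at 0.48 (SE 0.16, adjusted p = 0.0397) and 0.29 (SE 0.10, adjusted p = 0.0445) on the log2 scale. The call of *ttr-15* was lost without WT replicate 1, *lpin-1(RNAi)* replicate 1 or 3, WT replicate 1 or 2 on glucose-rich diets, or any glucose-fed *lpin-1(RNAi)* library (adjusted p up to 0.159). That of *ttr-16* was lost without the same libraries or *lpin-1(RNAi)* replicate 2 (adjusted p up to 0.326). With glucose, the call of *ttr-22* was lost without *lpin-1(RNAi)* replicate 3 of the control diets, WT replicate 1 or 3, or any *lpin-1(RNAi)* library (adjusted p up to 0.165), that of *ttr-28* without any WT library or *lpin-1(RNAi)* replicate 1 or 2 (adjusted p up to 0.134), and that of *ttr-17* without *lpin-1(RNAi)* replicate 3 (adjusted p up to 0.0728).

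**Figure D4:**
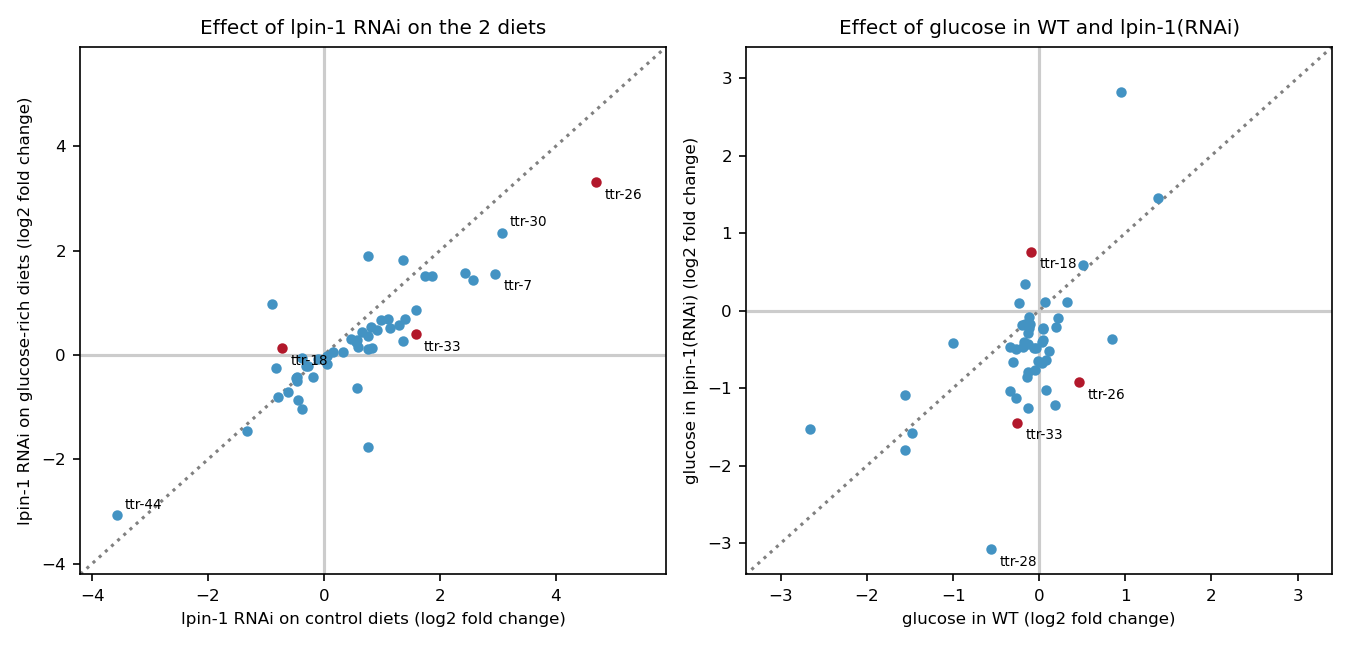
Log2 fold change of each of the 50 tested ttr genes by *lpin-1* RNAi on control diets (horizontal) and glucose-rich diets (vertical) in the left panel, and by glucose in WT (horizontal) and under *lpin-1* RNAi (vertical) in the right panel, with the dotted line of equal effects. Red points are the 3 members whose interaction passed the test (*ttr-18*, *ttr-26* and *ttr-33*), and *ttr-26* and *ttr-44* lie at opposite ends of the left panel.

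The third comparison asked how a glucose-rich diet changed the ttr genes in WT worms. Few members moved. Of the 50 members, 4 fell (8%), against 3.44% of all tested genes, and all 4 had a fold change above 2, a rule that 1.78% of all tested genes passed downward. In edgeR's test 0 members rose at the adjusted threshold, against 2.17% of all tested genes, although 6 members were higher at an unadjusted p under 0.05. DESeq2 called 1 higher, beside 425 of all 14696 tested genes. The median log2 fold change was -0.12, beside -0.00 over all tested genes. The summed level was 2715 ± 444 CPM on control diets and 2751 ± 359 CPM (SD, n = 3) on glucose-rich diets, a ratio of 1.01.

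All 4 decreases were in members of low level on chromosome V. *ttr-27* (12903550 to 12904098) was at 6.56, 4.87 and 6.19 CPM on control diets and at 1.85, 2.10 and 2.34 CPM on glucose-rich diets, a 2.78-fold decrease (log2 fold change -1.47, SE 0.21, adjusted p = 8.6e-04). The groups lay clearly apart, and the call of *ttr-27* held without each single library. *ttr-29* (12906128 to 12906832) was at 1.11, 0.800 and 0.628 CPM and at 0.319, 0.210 and 0.341 CPM (-1.56, SE 0.36, adjusted p = 0.0244). *ttr-23* was at 1.35, 0.582 and 1.46 CPM and at 0.447, 0.280 and 0.439 CPM (-1.56, SE 0.36, adjusted p = 0.025). These 2 genes had 5 to 9 counts in the WT libraries on glucose-rich diets, and neither overlapped between the diets. Their calls were lost without WT replicate 1 on control diets or any one WT library on glucose-rich diets, and that of *ttr-23* also without WT replicate 3 on control diets (adjusted p up to 0.0981 and 0.0957). *ttr-12*, the lowest tested member, had 8 to 14 counts per library on control diets, compared with 0 to 3 under added glucose. Its 30 and 4 summed counts gave a ratio of 6.73 after scaling, with a 95% exact (Clopper-Pearson) counting interval of 2.37 to 26.3 (edgeR adjusted p = 0.0418). The call of *ttr-12* was lost without any one WT library of either diet or *lpin-1(RNAi)* replicate 1 on glucose-rich diets (adjusted p up to 0.136). Only 1 of the 4 decreases was then left without WT replicate 1 on control diets or any one WT library under added glucose. With glucose in WT, 3 of 8 larval molting markers rose (*mlt-8*, *mlt-11* and *noah-1*, 37.5%, against 2.17% of all tested genes). Their sums were 110 to 138 CPM and 158 to 239 CPM. Of 8 hypodermis markers *dpy-7* rose and *grd-10* fell (12.5% each). Beside 3.44% of all tested genes that fell, 1 marker fell in each of the sperm (*ssp-16*), intestine (*vha-6*) and glia (*vap-1*) lists. Their part in the ttr results was not tested.

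The fourth comparison asked how a glucose-rich diet changed the ttr genes in *lpin-1(RNAi)* animals. More members fell than rose with glucose. Of the 50 members, 19 fell (38%) and 3 rose (6%), against 7.49% and 5.52% of all tested genes. With the fold rule, 10 fell and 1 rose, against 2.86% and 2.70%. The median log2 fold change was -0.45, beside -0.00 over all tested genes, and 42 members had a negative value. The summed level was 4440 ± 578 CPM on control diets and 3318 ± 228 CPM on glucose-rich diets (SD, n = 3), and the lowest library on control diets (3823 CPM) lay above the highest on glucose-rich diets (3479 CPM). This comparison uses the same control-diet *lpin-1(RNAi)* libraries as the first, so the 2 sets of values are not independent. *lpin-1* itself rose by 0.32 (log2) with glucose in these animals, and the part of a weaker knockdown in the ttr results was not tested. Without *lpin-1(RNAi)* replicate 2 on control diets, the lowest of its condition, 29 members fell. In that fit 1726 of 14812 genes fell, compared with 1100 of 14696 in the main fit.

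In the run of neighbours *ttr-27*, *ttr-28* and *ttr-29* (chromosome V, 12903550 to 12906832, all on the minus strand) each member was called lower with glucose. *ttr-27* was at 7.32, 6.09 and 6.16 CPM on control diets and at 1.55, 2.55 and 2.45 CPM on glucose-rich diets (log2 fold change -1.57, SE 0.20, adjusted p = 2.2e-04). *ttr-29* was at 2.76, 3.11 and 2.60 CPM and at 0.544, 1.05 and 0.815 CPM (-1.80, SE 0.27, adjusted p = 7.7e-04). In both genes the libraries of the 2 diets lay apart. *ttr-28* between them had 14 to 20 counts per library on control diets, compared with 1 to 3 under added glucose. Its 48 and 5 summed counts gave a ratio of 8.87 with a 95% exact counting interval of 3.55 to 28.6 (edgeR adjusted p = 0.00115), which covers counting error only. *ttr-27* and *ttr-29* fell with glucose in WT as well. Their glucose effects in WT and *lpin-1(RNAi)* animals were -1.47 and -1.57, and -1.56 and -1.80, and the differences of -0.10 (SE 0.29) and -0.24 (SE 0.49) did not pass the interaction test (adjusted p = 0.996 and 0.992).

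*ttr-33*, the member with a role in dopaminergic neurons, was at 23.4, 17.2 and 20.9 CPM on control diets and at 6.07, 7.65 and 8.80 CPM with added glucose in *lpin-1(RNAi)* animals, a 2.73-fold decrease (log2 fold change -1.45, SE 0.17, adjusted p = 1.4e-04). In WT it was at 6.51, 6.07 and 7.99 CPM and at 4.79, 6.34 and 5.95 CPM, so that *lpin-1(RNAi)* worms on control diets alone stood high and the other 3 conditions overlapped. The increase by *lpin-1* RNAi on control diets was 2.99-fold (1.58, SE 0.18, adjusted p = 9.5e-06). *ttr-33* lies on chromosome V at 7837093 to 7837909, wholly within *mig-6* on the other strand, which had 1755 to 11046 counts per library. *mig-6* also stood higher after *lpin-1* RNAi on control diets, by 1.02 on the log2 scale, and its difference with glucose in *lpin-1(RNAi)* animals was -0.17. *ttr-33* overlaps *txt-5* on the same strand over 42 bases, and its counts were fractional in 5 of 12 libraries. Whether the counting used strand is not given in the sources used here, and the part of *mig-6* reads in the *ttr-33* counts was not tested. Of 5 dopaminergic neuron markers, *bas-1* alone passed and fell after *lpin-1* RNAi on both diets (20%, against 19.8% and 15.8% of all tested genes). The other 4 had log2 fold changes of -0.54 to 0.09 on control diets and of -0.50 to 0.49 with added glucose. The summed level of the 5 was 50.2 to 58.0 CPM in WT and 15.7 to 16.3 CPM in *lpin-1(RNAi)* worms on control diets. On glucose-rich diets it was 43.4 to 44.2 CPM and 14.3 to 17.3 CPM.

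**Figure D5:**
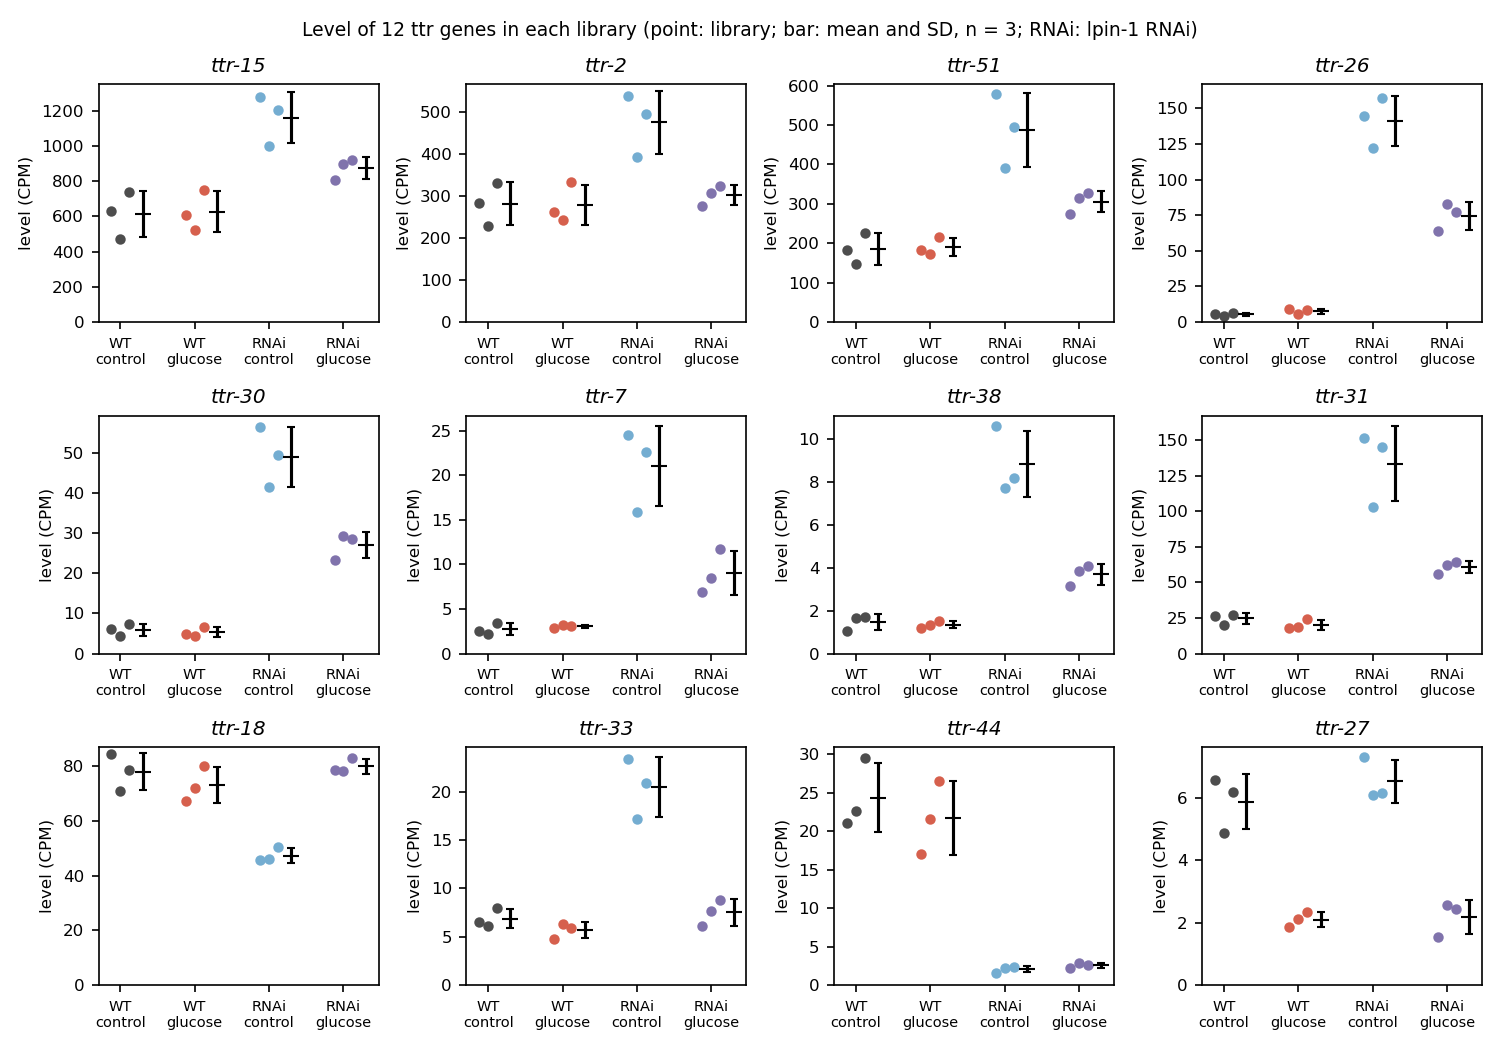
Level in CPM (vertical axes from 0) of 12 ttr genes in each library (points) of the 4 conditions, with the mean and SD of 3 libraries (bars). *ttr-26*, *ttr-30*, *ttr-31*, *ttr-33* and *ttr-7* are highest in *lpin-1(RNAi)* worms on control diets, *ttr-18* is lowest there, *ttr-44* is low in both *lpin-1(RNAi)* conditions, and *ttr-27* is low in both glucose conditions.

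Several members that rose with *lpin-1* RNAi were lower with glucose in *lpin-1(RNAi)* animals. *ttr-7* fell by 1.21 (SE 0.22, adjusted p = 0.00251), *ttr-38* by 1.26 (SE 0.19, adjusted p = 8.3e-04) and *ttr-31* by 1.13 (SE 0.16, adjusted p = 4.7e-04) on the log2 scale. Even so, all 3 stayed above the WT libraries of the same diet. The lowest level of *ttr-7* in glucose-fed *lpin-1(RNAi)* worms was 6.91 CPM, and the highest in WT on that diet was 3.19 CPM. Among the abundant members, *ttr-2* fell from 538, 393 and 494 CPM to 275, 307 and 323 CPM (-0.65, SE 0.16, adjusted p = 0.0147), which brought it into the range of the WT libraries. *ttr-51* fell from 578, 391 and 494 CPM to 275, 314 and 327 CPM (-0.68, SE 0.17, adjusted p = 0.0166), a call lost without *lpin-1(RNAi)* replicate 1 of either diet (adjusted p up to 0.0543). *ttr-15* and *ttr-16* differed by -0.41 (adjusted p = 0.127) and -0.23 (adjusted p = 0.161) and did not pass. *ttr-30* fell by 0.86 and *ttr-17* by 0.52 (adjusted p = 0.00752 and 0.0139). *ttr-46*, which was lower after *lpin-1* RNAi on both diets, fell by 0.79 with glucose (adjusted p = 0.0014). *ttr-23* fell by 1.09 (adjusted p = 0.0201), a call lost without *lpin-1(RNAi)* replicate 1 of either diet or replicate 3 of the glucose-rich diets (adjusted p up to 0.0607). The decreases of *ttr-6*, *ttr-14*, *ttr-20*, *ttr-32* and *ttr-59* lay between -1.04 and -0.40, and *ttr-14* among them had not risen with *lpin-1* RNAi.

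The 3 increases were those of *ttr-18*, *ttr-22* and *ttr-50*. *ttr-22* (chromosome V, 12241426 to 12241945) was at 0.465, 0.513 and 0.372 CPM on control diets and at 2.72, 4.04 and 2.98 CPM with added glucose in *lpin-1(RNAi)* animals, a 7.04-fold increase (log2 fold change 2.82, SE 0.36, adjusted p = 2.2e-04). In WT it was at 1.21, 0.691 and 0.711 CPM and at 0.830, 2.35 and 1.66 CPM, which overlapped (0.95, SE 0.35, adjusted p = 0.162). The difference between the 2 glucose effects of *ttr-22*, 1.86 (SE 0.51), did not pass the interaction test (adjusted p = 0.109). *ttr-50* (chromosome IV, 11640047 to 11641015) rose from 82.1, 88.9 and 101 CPM to 121.9, 146 and 141 CPM (0.59, SE 0.17, adjusted p = 0.0389). In WT its values were 110, 80.8 and 144 CPM and 157, 140 and 178 CPM, which overlapped narrowly (0.50, SE 0.17, adjusted p = 0.122), and the call in *lpin-1(RNAi)* animals was lost without WT replicate 1 of either diet, *lpin-1(RNAi)* replicate 1 or 2 of the control diets or any glucose-fed *lpin-1(RNAi)* library (adjusted p up to 0.115). Of 8 larval molting markers, 4 rose (50%) and 1 fell (12.5%) with glucose in *lpin-1(RNAi)* animals, against 5.52% and 7.49% of all tested genes. Their sums were 98.0 to 127 CPM and 187 to 256 CPM. Of 7 intestine markers 4 fell (57.1%), with sums of 925 to 1172 CPM and 764 to 897 CPM. Of 8 hypodermis markers, 2 rose and 1 fell. Lone calls were *sbt-1* (neuron) and *vap-1* (glia), which fell, and *ceh-22* (pharynx), which rose. Their part in the ttr results was not tested.

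The last comparison tested whether the glucose effect differed between *lpin-1(RNAi)* and WT animals, which is the same as asking whether the effect of *lpin-1* RNAi differed between diets. Of the 50 members, 1 was higher and 2 were lower in this interaction, against 1.05% and 0.558% of all tested genes. Both decreases exceeded a fold change of 2, as did 0.374% of all tested genes, whereas the 1 increase did not, a rule that 0.810% passed upward. The median difference was -0.28 over the members, beside 0.03 over all tested genes, and 38 of 50 members had a negative value. *ttr-18* (chromosome II, 11485510 to 11486748) went one way alone. Its level was 84.5, 70.9 and 78.5 CPM in WT and 67.2, 72.1 and 80.2 CPM in WT on glucose-rich diets. After *lpin-1* RNAi it was 45.5, 45.9 and 50.4 CPM on control diets and 78.5, 78.3 and 83.1 CPM on glucose-rich diets. The 3 control-diet *lpin-1(RNAi)* libraries lay below the other 9, which overlapped one another. The glucose effect of *ttr-18* was -0.09 in WT compared with 0.76 after *lpin-1* RNAi, a difference of 0.85 (SE 0.13, adjusted p = 0.00439).

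*ttr-26* went the opposite way. Its glucose effect was 0.47 (SE 0.19) in WT compared with -0.92 (SE 0.16, adjusted p = 0.00203) after *lpin-1* RNAi, a difference of -1.39 (SE 0.25, adjusted p = 0.0126). *ttr-33* differed by -1.19 (SE 0.25, adjusted p = 0.032). The calls of *ttr-18* and *ttr-26* held without each single library, whereas that of *ttr-33* was lost without any one of 8 libraries, with WT replicate 3, *lpin-1(RNAi)* replicate 2, WT replicate 1 on glucose-rich diets and *lpin-1(RNAi)* replicate 3 on glucose-rich diets as the exceptions (adjusted p up to 0.093). Without *lpin-1(RNAi)* replicate 2 on control diets 10 members were lower, and without its replicate 3 on glucose-rich diets 4 were. Of all genes, 200 of 14812 and 65 of 14983 were lower in these fits, compared with 82 of 14696 in the main fit. The other 47 members did not pass, with differences from -2.52 to 1.86. DESeq2 called 10 members lower and 2 higher, beside 200 and 263 of all 14696 tested genes. A fit blocked on replicate number called 10 lower and 1 higher, beside 217 and 271 of all tested genes.

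The ttr genes were spread over all 6 chromosomes, with 22 on V, 12 on X, 10 on IV, 9 on III, 3 on I and 2 on II. By *lpin-1* RNAi on control diets, 6 of 9 tested members rose on chromosome III and 6 of 9 on IV, and 8 of 18 rose and 4 fell on V. On X, 6 of 12 rose and 2 fell. Both members on II fell, and the 3 members on I were below the filter. Of the 58 members, 28 lay next to another ttr gene, in 12 runs of 2 or 3 genes with gaps of up to 1913 bases. Of the members, 14 overlap another gene on the other strand, among them *ttr-16* with *lin-3* over 239 bases and *ttr-7* with *best-17* over 74 bases, and 4 overlap one on the same strand, so that their counts may hold reads of the partner. *ttr-1* and *ttr-2* show neighbours with different values. *ttr-1*, 72 bases from *ttr-2* on the same strand, was at 9.50, 8.94 and 12.5 CPM in WT and 12.4, 8.23 and 11.5 CPM after *lpin-1* RNAi on control diets, where *ttr-2* rose. *ttr-3* on the other side of *ttr-2* had fractional counts in 11 of 12 libraries, since some of its reads match other genes as well, and its log2 fold change there was 0.47 (SE 0.18, adjusted p = 0.0526).

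Genes of the engulfment pathway in which TTR-52 acts were examined beside the family. All 14 listed genes were tested. On control diets 7 rose with *lpin-1* RNAi (50%, against 19.5% of all tested genes) and the other 7 did not pass, and the median log2 fold change of the 14 was 0.47. The engulfment receptor *ced-1* rose by 0.76 (SE 0.12, adjusted p = 1.8e-04) and *nrf-5*, a secreted lipid-binding protein, by 0.83 (SE 0.13, adjusted p = 1.7e-04). The adaptor *ced-6*, the Rac GTPase *ced-10*, the integrin *ina-1*, the phosphatidylserine flippase *tat-1* and its partner *chat-1* rose by 0.44 to 0.62. On glucose-rich diets 7 rose (50%, against 16% of all tested genes), with a median of 0.37. There *ced-1* rose by 0.61 (SE 0.12, adjusted p = 0.00138) and *nrf-5* by 0.58 (SE 0.13, adjusted p = 0.00343). *psr-1*, a phosphatidylserine receptor, differed by -0.18 (adjusted p = 0.0788) and -0.16 (adjusted p = 0.129) on the 2 diets.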

How the data were processed

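RNA of whole worms was sequenced from stranded TruSeq libraries, and whether counting used strand is not given in the sources used here. The authors deposited a table of unnormalized expected counts for each library, and the submitters' processing notes name STAR 2.7.0e, RSEM 1.3.1, DESeq2 1.22.2 and the build WBcel235 (ce11). Expected counts divide reads that match several genes, so they were rounded to whole numbers. Totals were 16546027 to 31534284 counts per library. Gene names, coordinates and exon lengths came from the Ensembl annotation of WBcel235.

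Genes were filtered with edgeR 4.0.16 in R 4.3.3 (filterByExpr, minimum count 10, 14696 genes kept) and scaled by TMM (factors 0.903 to 0.968 in WT and 1.03 to 1.17 in *lpin-1(RNAi)* libraries). CPM are counts scaled to the TMM-adjusted library size. One quasi-likelihood model held the 4 condition means (8 residual degrees of freedom). Contrasts were the glucose effect under control and under *lpin-1* RNAi, the *lpin-1* RNAi effect on each diet, and the interaction. A gene passed at a Benjamini-Hochberg adjusted p under 0.05 over all tested genes. The pipeline was tested on simulated data.

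Members described singly were, per comparison, up to 4 increases and 4 decreases of largest fold change among those that passed, with at least 10 counts in each library of the higher group and groups that do not overlap. To these were added each member past the interaction test, the 5 of highest level per kilobase, and *ttr-52*, *ttr-33* and *ttr-11*. *ttr-12* and the neighbours of named genes were chosen after their values were seen. Members and lists were chosen with earlier results of these data known. The intestine marker *opt-2* had no match. Same-number libraries deviated together in both *lpin-1* RNAi comparisons (3 of 3 pairs with r over 0.1, 0.28 to 0.53 and 0.20 to 0.35), so the numbers in the labels were taken as pairs there and the counts with a replicate block are given beside the counts without it. In the glucose comparisons 2 of 3 and 1 of 3 pairs did. Alternatives were other scalings and filters, DESeq2 1.42.0, the compared groups alone, the replicate block, the fold rule and each library left out. Protein and promoter sequences of the ttr genes were not analysed here.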

Additional observations from a re-analysis of the deposited data

Results flagged for a closer look

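The difference between the glucose effects in *lpin-1(RNAi)* and WT animals passed the interaction test for 3 ttr genes. It was 0.85 (log2) for *ttr-18*, -1.39 for *ttr-26* and -1.19 for *ttr-33*. Each value is the effect in *lpin-1(RNAi)* animals minus that in WT.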

How the results depend on the processing

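Low counts limit 8 untested members and *ttr-12*, *ttr-23*, *ttr-28*, *ttr-29* and *ttr-52*, and 3 libraries per condition limit the interaction. Of 60 results on single members, 47 kept direction and side of the threshold under every alternative run, and of 1124 alternative values 81 lost the threshold and 0 changed sign. The summed ttr level of each condition moved by less than 1 SD under each alternative, where the SD is that of the 3 libraries of the condition. This does not cover the differences between conditions. With library totals alone the WT sums are lower and the *lpin-1(RNAi)* sums higher, so the differences between WT and *lpin-1(RNAi)* worms widen. The causes of the changes that follow were not tested, except that the fold rule and the stricter filter leave fewer genes by construction. With glucose in WT, 2 members rose without a filter and 1 with DESeq2, against 0, and 1 fell with at least 10 counts in every library and 1 with the compared groups alone, against 4. Of all genes, 386 of 20976 rose without a filter and 425 of 14696 with DESeq2. With at least 10 counts in every library 411 of 11893 fell, and 339 of 13497 with the compared groups alone. With the fold rule, 1 rose and 10 fell with glucose in *lpin-1(RNAi)* animals, 15 rose and 2 fell with *lpin-1* RNAi on control diets, 8 rose and 4 fell under added glucose, and 0 were higher in the interaction. *ttr-18*, at 0.85, is below that fold, and 2 members were higher in the interaction at an unadjusted p under 0.05 in edgeR. With library totals alone, 4 members fell with *lpin-1* RNAi on control diets and 6 under added glucose, beside 1469 and 1117 of all 14696 tested genes. In the interaction, 5 members were lower without a filter and 10 with DESeq2, which called 2 higher. Of all genes, 123 of 20976 were lower without a filter. With DESeq2, 200 of 14696 were lower and 263 higher.

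Over all conditions 12 of 18 same-number pairs correlated by over 0.1 (mean 0.22, range 0.04 to 0.53), among them every pair of both *lpin-1* RNAi comparisons but not every pair of the glucose comparisons. With the replicate block, 2 members rose and 5 fell with glucose in WT, beside 554 and 968 of all 14696 tested genes. With glucose in *lpin-1(RNAi)* animals 4 rose and 27 fell, beside 1561 and 1850. By *lpin-1* RNAi on control diets 28 rose and 12 fell, beside 3379 and 3381. Under added glucose 20 rose and 12 fell, beside 2986 and 2806. In the interaction 1 was higher and 10 lower, beside 271 and 217. The block changed the call of none of the 60 results on single members.

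Over the 12 fits that each left out one library, the members that rose and fell numbered 0 to 2 and 1 to 4 with glucose in WT, 2 to 3 and 16 to 29 with glucose in *lpin-1(RNAi)* animals, 22 to 28 and 6 to 13 with *lpin-1* RNAi on control diets, 11 to 19 and 7 to 12 under added glucose, and 1 to 2 and 1 to 10 in the interaction. The 2 increases with glucose in WT were without WT replicate 3 on control diets, and 1 fell without WT replicate 1 on control diets or any one WT library on glucose-rich diets. Of the 14760 to 15025 genes tested in these 12 fits, 143 to 400 rose and 245 to 562 fell with glucose in WT. With glucose in *lpin-1(RNAi)* animals 514 to 985 rose and 725 to 1726 fell. By *lpin-1* RNAi on control diets 2476 to 2864 rose and 2472 to 3055 fell. Under added glucose 1684 to 2515 rose and 1757 to 3017 fell. In the interaction 92 to 162 were higher and 42 to 200 lower.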
